A study of Mus musculus with 10 samples.

Results

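The genes described here are the machinery of apoptosis and the targets of the tumour suppressor p53, listed by symbol with no measured value in the rule. The list held 43 genes, and 40 of them were measured among the 18193 genes that the arrays measured in all. A gene was measured where a probe set, a group of short probes read together as one signal, was annotated to that gene alone. Trp53, which encodes p53, and the family genes Bax and Bcl2a1b had no such probe set and are not analysed here. Of the 40 measured genes, 36 passed a filter that left out the dimmest 40% of genes by mean signal, and Perp, Pmaip1, Fas and Tnfrsf10b did not.

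RNA came from metanephric mesenchyme of mouse kidneys at stage E11.5, dissected away from the ureteric bud, the epithelium that grows into it. There were 5 pools of Wnt9b-/- tissue, called mutant here, and 5 pools of wild-type tissue, each hybridised to its own Affymetrix array and each made from 25 to 30 mesenchymes. The sample labels give the wild-type genotype as Wnt9b+/+, while the series' design text names heterozygous tissue as the other group, and the labels were followed. The sources used here do not describe the Wnt9b allele. Each embryo's mesenchyme was freed with trypsin and pancreatin before its RNA was pooled, so a value is a mean over many embryos and over all cell types of the dissected tissue. Each array is taken here as a pool of its own, which the sample titles do not state. Replicate numbers name the pools and pair none of them.

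Wnt9b is a secreted ligand made by the ureteric bud that renews nephron progenitors and induces them to form epithelium. Kidney mesenchyme that receives no inducing signal in culture is known to die by apoptosis, and the comparison asks whether mesenchyme without Wnt9b carries a transcriptional sign of that at E11.5. In the mitochondrial pathway, BH3-only proteins sense stress and neutralise survival proteins of the Bcl2 type, which frees Bax and Bak1 to open the outer mitochondrial membrane. Cytochrome c then leaves the mitochondria, assembles the apoptosome with Apaf1 and activates Casp9, while inhibitor proteins such as Xiap hold caspases back. p53 is a transcription factor that mainly acts through its protein level, so its activity is read here from its targets, which arrest the cycle, repair DNA, restrain p53 itself or promote death. Much of caspase activation takes place on proteins that already exist, and an array does not measure it.

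The sequence that p53 binds is a pair of decameric half-sites, and examples from the RefSeq promoters of GRCm38.p6 are shown before the values. They were picked from targets whose window held a match. All but that of Cdkn1a show a single half-site and not a pair. The window ran from 250 bases before to 50 bases after each annotated start, and 37 of the 43 genes had at least 1 window. Only full matches are marked, so a near match stays in small letters, and which half-sites p53 pairs was not tested. In each line the capitals mark a match to the p53 half-site, searched on both strands, and the sequence is written 5′ to 3′ on the strand of the gene.
Cdkn1a: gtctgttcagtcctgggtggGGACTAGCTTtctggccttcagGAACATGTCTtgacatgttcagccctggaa
Mdm2: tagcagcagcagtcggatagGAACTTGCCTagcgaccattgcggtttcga
Ccng1: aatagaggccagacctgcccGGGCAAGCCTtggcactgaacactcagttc
Sesn1: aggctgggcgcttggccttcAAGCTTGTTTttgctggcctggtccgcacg
Gadd45a: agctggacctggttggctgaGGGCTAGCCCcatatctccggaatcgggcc
These 5 sequences lie at chr17:29090886-29090957 on the plus strand, chr10:117710915-117710964 on the minus strand, chr11:40755442-40755491 on the minus strand, chr10:41887246-41887295 on the plus strand and chr6:67037418-67037467 on the minus strand. Cdkn1a was the sole listed gene with 2 half-sites at most 13 bases apart, a spacing found in 0.073% of all 32851 windows.

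Single half-sites were present in 9 of the 51 windows of the listed genes, or 17.65%, and in 8.356% of all windows. The genes holding one were Bax, Birc2, Bmf, Ccng1, Cdkn1a, Gadd45a, Mdm2, Sesn1 and Trp53. The other listed p53 targets had no match or no window: Trp53inp1, Sesn2, Btg2, Perp, Phlda3, Zmat3, Bbc3, Pmaip1, Fas, Tnfrsf10b and Apaf1. A binding site for NF-kB, the factor of inflammatory survival signalling, was matched in 11.76% of the listed genes' windows and in 8.459% of all windows. The Tcf/Lef core CTTTGA or CTTTGT, through which canonical Wnt signalling acts, was matched on either strand in 27.45% and in 31.198%. The windows of Birc3 and Bcl2, the genes with the lowest differences of the list, held neither of these 2 motifs. A match is a match of letters, and it does not show that a factor binds there.

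Signals are given on the scale log2(signal + 1), and a difference is the mutant mean minus the wild-type mean on that scale. The label check on the targeted gene was not decisive, because the sources used here do not place its probe sets relative to the deletion and Wnt9b is made by the bud, of which the pools held varying RNA. Wnt9b read 6.31 to 6.65 in wild type and 5.42 to 6.74 in the mutants. All arrays had been scaled to 1 trimmed mean signal. Signal of 18S ribosomal RNA on its 5′ probe set split the arrays into a high set of 4 (wild-type replicates 2 and 5, mutant replicates 4 and 5), with signals of 1975 to 2587, and a low set of 6, with signals of 92.4 to 322. Mutant replicate 2 and wild-type replicate 3 had the brightest hybridisation controls and the largest excess of the 3′ over the 5′ probe set of Actb, 0.93 and 0.94 against 0.39 to 0.71 on the other arrays.

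The tissue carried its defining markers: Six2, the transcription factor of nephron progenitors, read 10.45 in wild type and 9.79 in the mutants. Of 9 nephron progenitor markers measured, 8 were lower in the mutants, with a median difference of -0.66, and their summed signal was 7579.8 to 9319.9 in wild type and 3877 to 7237 in the mutants. All 10 macrophage markers read higher in the mutants, with a median difference of 0.34 and summed signals of 1519 to 2139.9 and 1427 to 2843, which overlap. The 9 endothelial markers were all higher by a median of 0.12, again with overlapping sums of 2989 to 3861 and 3014 to 3946. Of 5 stroma markers 4 were higher, with a median of 0.18 and sums of 9490.8 to 11502.7 and 9110.0 to 13195.7, and Pdgfra at 0.36 did not overlap between the groups (limma, unadjusted p = 0.00867, adjusted p = 0.691). Of 5 neuron and neural crest markers 3 were higher, with a median of 0.25 and sums of 462.6 to 669.5 and 590.1 to 920.2. Among these, Stmn2 at 0.67 did not overlap between the groups (limma, unadjusted p = 0.00633, adjusted p = 0.668), and Foxd3 was at 0.99 (limma, unadjusted p = 0.0109, adjusted p = 0.722). The 12 ureteric bud markers were split 6 to 6, with sums of 1842 to 3338 and 1394 to 3862, so RNA of the bud was present in both groups despite the dissection. Erythroid markers were higher for 4 of 7, with overlapping sums. No marker of these 7 lists had a mean signal under 20. In pooled tissue, fewer cells of a type and less RNA per cell cannot be told apart, and the part that these marker differences play in the values below was not tested.

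None of the measured genes of apoptosis or p53 response changed detectably. Of the 40 measured genes, 0 were called by limma, a linear model fitted across all 18193 genes, at a Benjamini-Hochberg adjusted p under 0.05. The same test called 0.00550% of all genes, which is 1 gene, Btbd11. At an unadjusted p under 0.05 there were 0 genes higher in the mutants and 2 lower, Birc3 and Bcl2, where 3.41% of all genes were higher and 2.08% lower. These 2 of 40 are close to the 5.49% of all genes that passed in either direction. For 0 of the 40 did the 5 mutant values lie wholly outside the 5 wild-type values, as they did for 1.21% of all genes.

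The differences were small and leaned slightly upward. Of the 40 genes, 26 were higher and 14 lower in the mutants, so 65.0% were higher, against 54.9% of all genes. Their median difference was 0.09 and that of all genes 0.02. The median was 0.045 without wild-type replicate 4, 0.057 without mutant replicate 2 and 0.032 with the mean of each gene's probe sets. The sign of the difference held in all 10 fits that left out 1 array for 21 of the 40 genes and turned in at least 1 of them for 19. The median size of a difference, whatever its sign, was 0.144 for the 40 genes and 0.153 for all genes, and 36 of the 40 differed by less than 0.3. The 95% interval of the difference lay inside a 2-fold change either way for 35 of the 40, or 87.5%, against 69.4% of all genes. These shares are not matched for brightness, since the filter on dim signal left out 4 of the 40 genes and 40% of all genes. The intervals of Sesn2, Perp, Pmaip1, Fas and Tnfrsf10b were wider, and for these 5 they reached past a 2-fold difference.

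**Figure D1:**
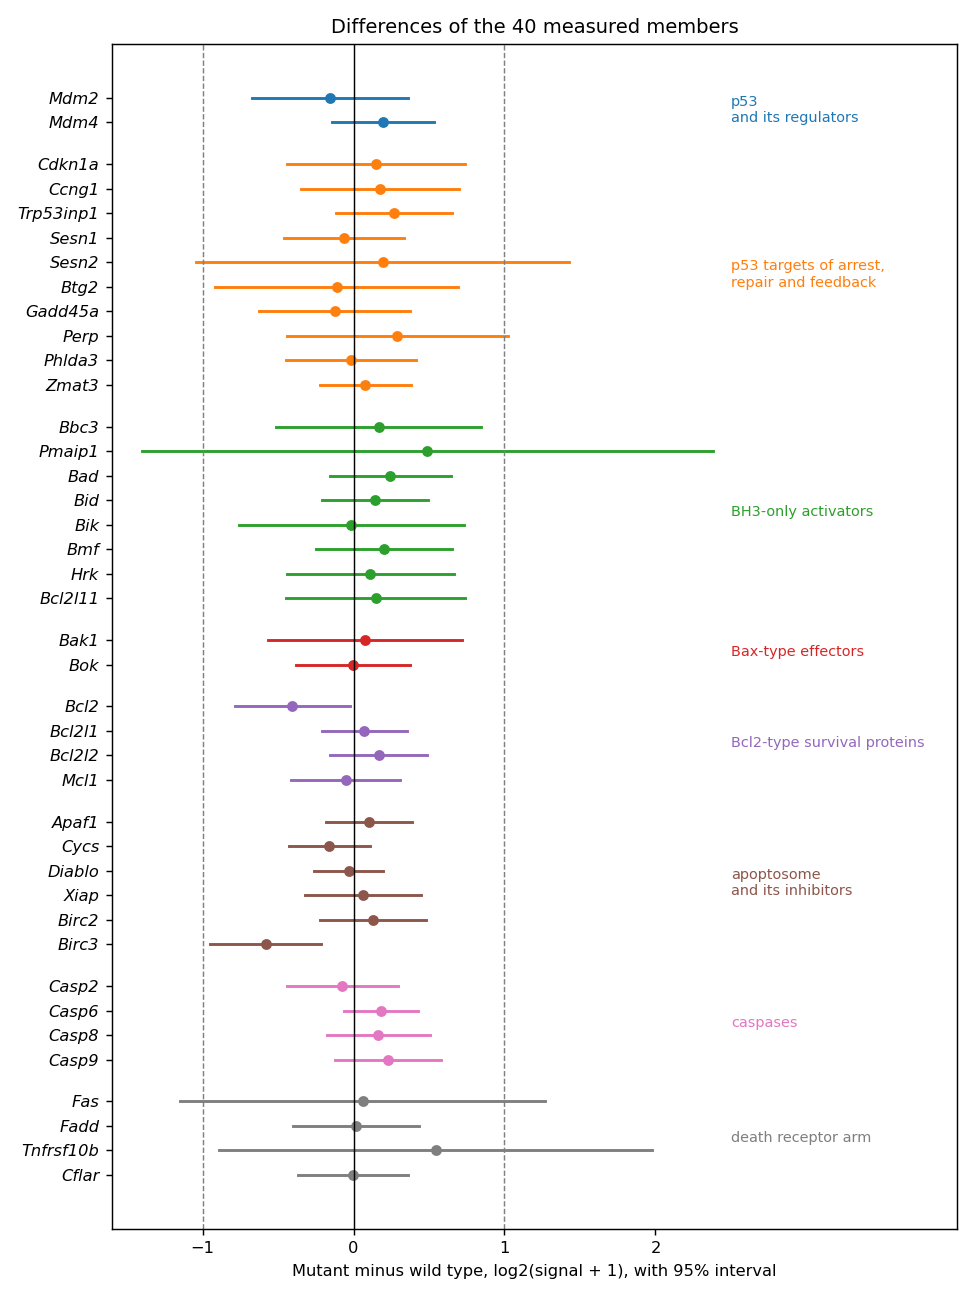
Difference of each of the 40 measured genes between mutant and wild type on the log2(signal + 1) scale (x axis), one gene a line in order of role, with points for the difference, bars for its 95% interval, colours for roles and dashed lines at a 2-fold change. Birc3 at -0.58 and Bcl2 at -0.41 are the lowest, the sole intervals that leave out 0, and the widest bars belong to dim genes such as Pmaip1, Fas and Tnfrsf10b.

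Genes that promote survival held both of the low p-values. Of the 8 measured survival genes, 4 were higher and 4 lower, with a median difference of 0.03. Birc3 encodes cIAP2, a ubiquitin ligase that protects cells in tumour necrosis factor signalling. It read 6.92, 6.91, 6.50, 6.92 and 7.16 in wild-type replicates 1 to 5 and 6.06, 6.29, 6.19, 6.75 and 6.20 in mutant replicates 1 to 5. Mutant replicate 4 stood above wild-type replicate 3, so the groups overlapped by that pair, and the other 4 mutant pools lay below all wild-type pools. The means were 6.88 ± 0.24 and 6.30 ± 0.26 (SD, n = 5 each), a difference of -0.58 with a standard error of 0.16. In fold terms the mutant signal was 0.668 of wild type, with a 95% interval of 0.519 to 0.861 (limma, unadjusted p = 0.00539, adjusted p = 0.63).

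Birc3 kept its direction when any 1 array was left out, with differences of -0.69 to -0.51 and unadjusted limma p-values of 0.001 to 0.0152. It was -0.56 among the high 18S arrays and -0.60 among the low ones. Its other probe set, a dim one, gave -0.93 with a standard error of 0.58. Birc2, the neighbouring paralog with the same kind of ligase activity, differed by 0.13, with an interval of -0.22 to 0.48. The 2 genes are related in sequence, and how far each probe set separates their transcripts was not tested.

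Bcl2 is the founding survival protein of its family, and mice that lack it are known to have small, cystic kidneys. Bcl2 read 9.47, 9.62, 9.05, 9.38 and 9.41 in wild-type replicates 1 to 5 and 8.56, 8.81, 9.30, 8.97 and 9.25 in mutant replicates 1 to 5. Mutant replicates 3 and 5 stood above wild-type replicate 3, and the other 3 mutant pools lay below every wild-type pool. The means were 9.38 ± 0.21 and 8.98 ± 0.31 (SD, n = 5 each), a difference of -0.41 with a standard error of 0.17. The mutant signal was 0.755 of wild type, with an interval of 0.58 to 0.983 (limma, unadjusted p = 0.0389, adjusted p = 0.887). The unadjusted p stayed under 0.05 in 3 of the 10 fits that left out 1 array, those without wild-type replicate 3, mutant replicate 3 or mutant replicate 5. It reached 0.091 without mutant replicate 1, where the limma difference was -0.30.

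Every one of the 5 Bcl2 probe sets read lower in the mutants, by -0.41, -0.38, -0.25, -0.16 and -0.21 from the brightest to the dimmest. The first and second of these had unadjusted p-values under 0.05 in a limma fit over all probe sets. Probe sets of 1 gene read the same RNA and are not replicates. Across all 40 genes, 29 had more than 1 probe set, and for 13 of those all probe sets had the same sign. The Bcl2 difference was -0.40 among high 18S arrays and -0.41 among low ones. Bcl2 and Birc3 were lower in the mutants, as were the nephron progenitor markers, whose summed signal did not overlap between the groups, and the part of those cells in either value was not tested.

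**Figure D2:**
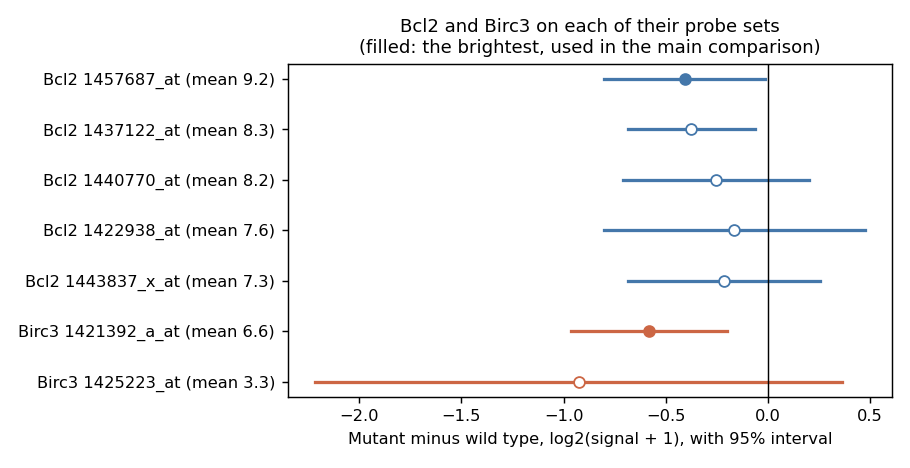
Difference between mutant and wild type for each of the 5 probe sets of Bcl2 and the 2 of Birc3 (x axis, log2(signal + 1), points with 95% intervals); filled points are the brightest probe set of each gene. All 7 points lie below 0, from -0.93 for the dim Birc3 probe set to -0.16 for 1 of Bcl2.

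The 3 other survival genes of the Bcl2 type had intervals on both sides of 0 on their brightest probe sets, and their dimmer probe sets disagreed in sign. Bcl2l1, which encodes Bcl-xL, differed by 0.07, with an interval of -0.21 to 0.35. Its next probe set read 0.79, with an interval of 0.07 to 1.51 and an unadjusted p of 0.0348 in the limma fit over all probe sets, and the dimmest 2 read -0.11 and -0.59. Bcl2l2, which encodes Bcl-w, differed by 0.17, with an interval of -0.15 to 0.48, and its other probe sets by -0.53 to 0.64. Mcl1, a short-lived survival protein, read 11.81 ± 0.26 in wild type and 11.76 ± 0.23 in the mutants, and its 6 probe sets differed by -0.05 to 0.07. Over these 4 survival proteins the median difference was 0.01. Xiap, the inhibitor that binds active caspases directly, differed by 0.06, with an interval of -0.32 to 0.45. Its other 6 probe sets, all dimmer, ran from -1.13 to 0.26, with 5 of them lower, among them 1 at -0.66 (limma over all probe sets, unadjusted p = 0.0272), and the mean of its probe sets gave -0.25. Cflar, which encodes the FLIP protein that blocks Casp8 at death receptors, read 7.55 in both groups.

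Negative regulators of p53 come next, since p53 itself was not measured. Mdm2 encodes the ligase that marks p53 for degradation and is itself a p53 target. It read 10.07, 9.82, 10.47, 10.73 and 9.70 in wild-type replicates 1 to 5 and 10.33, 10.36, 9.75, 9.83 and 9.74 in mutant replicates 1 to 5. The groups overlapped over most of their range, and the highest value was in wild-type replicate 4. The difference was -0.16 with an interval of -0.67 to 0.36 (limma, unadjusted p = 0.518, adjusted p = 0.999). It was -0.01 without wild-type replicate 4 and 0.03 among the high 18S arrays, so no direction is stated for Mdm2.

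Mdm4 encodes the partner of Mdm2 that masks the activation domain of p53. It read 8.88, 8.69, 8.69, 9.16 and 8.63 in wild-type replicates 1 to 5 and 9.04, 9.36, 8.89, 8.73 and 9.00 in mutant replicates 1 to 5. Of the 5 mutant pools, 4 lay above 4 of the 5 wild-type pools, and wild-type replicate 4 was the second highest of all 10. The difference was 0.19 with an interval of -0.14 to 0.53 (limma, unadjusted p = 0.225, adjusted p = 0.984). One of its other probe sets read -0.27.

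The p53 targets did not move together. Counting Mdm2, Apaf1, the death genes Bbc3, Pmaip1, Fas and Tnfrsf10b and the 10 targets of arrest and repair, 16 of 17 p53 targets were measured, 11 higher and 5 lower, with a median difference of 0.13. Of the 7 measured genes with a half-site in their promoter window, 4 were higher (Birc2, Bmf, Ccng1 and Cdkn1a) and 3 lower (Gadd45a, Mdm2 and Sesn1). The signs of Cdkn1a, Gadd45a and Sesn1 turned when 1 array was left out. Cdkn1a encodes p21, the cyclin-dependent kinase inhibitor through which p53 arrests the cycle, and its window carries the 2 half-site matches shown above.

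Cdkn1a read 6.65, 6.98, 7.16, 7.65 and 7.19 in wild-type replicates 1 to 5 and 7.26, 8.16, 6.93, 7.05 and 6.98 in mutant replicates 1 to 5. Mutant replicate 2 stood alone at the top, while the other 4 mutant pools lay inside the wild-type range. The difference was 0.15 with an interval of -0.44 to 0.74 (limma, unadjusted p = 0.582, adjusted p = 0.999). Without mutant replicate 2 it was -0.07, and the gene's other probe set gave -0.33, so no direction is stated for Cdkn1a.

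Trp53inp1 encodes a nuclear protein induced by p53 that promotes arrest and death. It read 10.17, 10.06, 10.37, 10.05 and 10.42 in wild-type replicates 1 to 5 and 10.45, 9.94, 10.65, 10.82 and 10.54 in mutant replicates 1 to 5. Mutant replicate 2 was the lowest of all 10 pools, and the other 4 mutant pools were above every wild-type pool. The difference was 0.27 with an interval of -0.11 to 0.65 (limma, unadjusted p = 0.148, adjusted p = 0.959). Without mutant replicate 2 it was 0.40 with an unadjusted limma p of 0.0139, and its other probe set gave 0.19.

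The remaining targets of arrest, repair and feedback lay on both sides of 0. Ccng1, a cyclin that dampens p53, differed by 0.18, and Zmat3, an RNA-binding protein, by 0.08. Gadd45a, a stress sensor, differed by -0.12, Btg2, an antiproliferative cofactor, by -0.11 (0.40 among the high 18S arrays and -0.45 among the low ones), and Phlda3, an inhibitor of Akt, by -0.02. Gadd45a was 0.08 without wild-type replicate 3, Btg2 was 0.12 without mutant replicate 3, and Phlda3 was 0.12 without mutant replicate 4. Sesn1 and Sesn2 encode sestrins, which restrain the growth kinase mTORC1. Sesn1 differed by -0.06, but by 0.05 without mutant replicate 2, and its 3 other probe sets read 0.05, 0.18 and 0.93. Sesn2 differed by 0.19 with an interval of -1.04 to 1.43, and by -0.14 without wild-type replicate 3 and -0.11 without mutant replicate 2. Perp, a membrane protein of p53-driven death, differed by 0.29. Its difference was 0.78 among the low 18S arrays and -0.45 among the high ones, and Perp was among the genes under the filter on dim signal.

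Single arrays held the extremes of several targets. Of the 16 p53 targets, mutant replicate 2 had the highest value of all 10 arrays for 5, namely Cdkn1a (8.16), Bbc3 (8.27), Sesn2 (7.55), Phlda3 (8.80) and Fas (5.64). It had the lowest for 2, Trp53inp1 (9.94) and Sesn1 (8.44). Its median deviation from the 10-array mean of each target was 0.22. Wild-type replicate 2 lay as far on the other side at -0.22, and the other 8 arrays ran from -0.06 to 0.14. Mutant replicate 5 was highest for 3 of the targets, and wild-type replicate 4 and mutant replicate 4 were each lowest for 3. Mutant replicate 2 also had the brightest hybridisation controls, and the part of the array in those values was not tested.

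**Figure D3:**
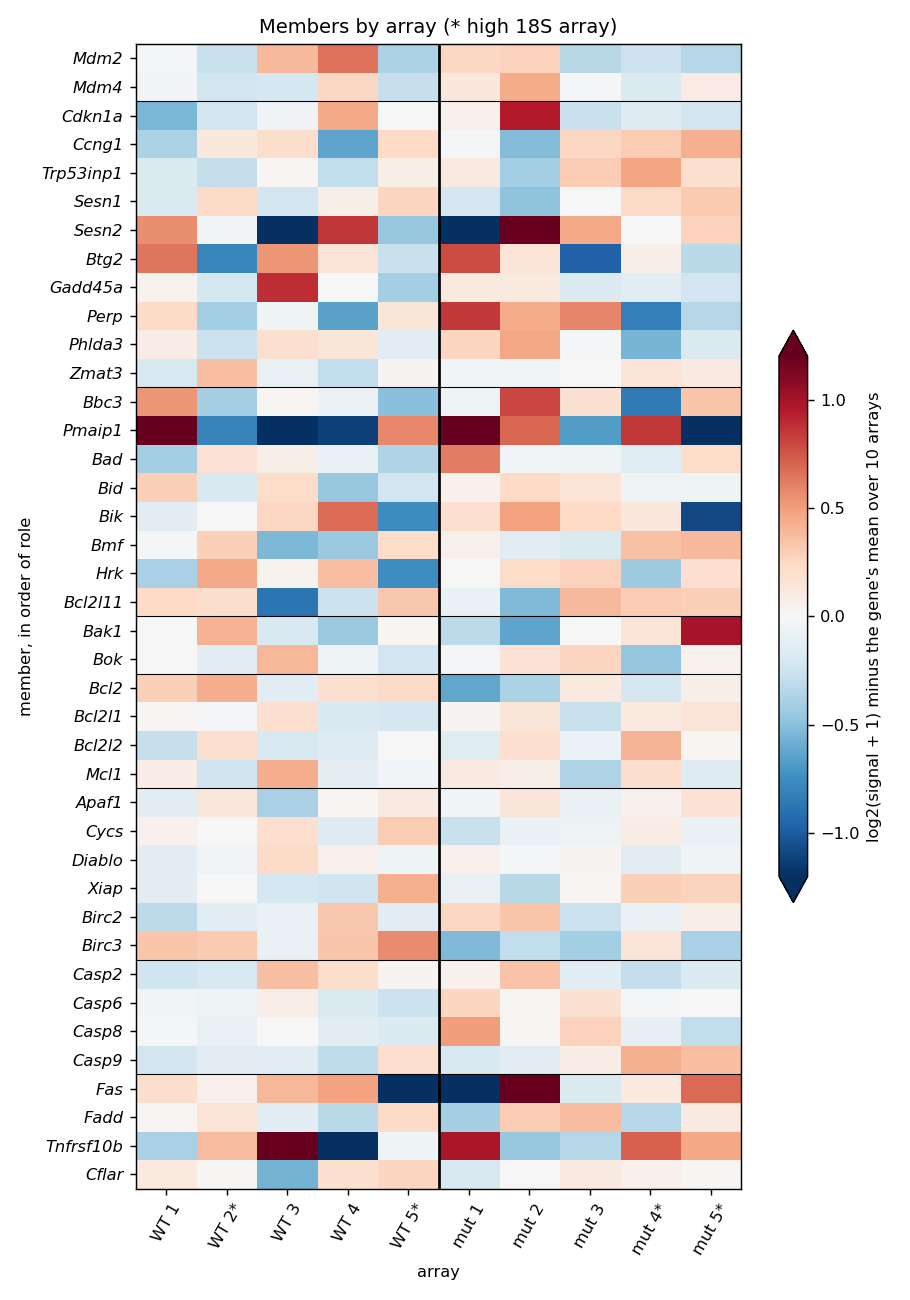
Deviation of each of the 40 genes (rows, in order of role) from its own mean over the 10 arrays (columns, wild type then mutant), in log2(signal + 1) units, with an asterisk on arrays of the high 18S set. Mutant replicate 2 shows raised values for Cdkn1a, Bbc3, Sesn2, Phlda3 and Fas beside lowered ones for Trp53inp1 and Sesn1, and no role group changes colour as a block between wild type and mutant.

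BH3-only genes, the sensors that start mitochondrial death, were higher for 7 of 8 and lower for 1, with a median difference of 0.16. Of all genes, 54.9% were higher. An unadjusted p under 0.05 was reached by 0 of 8 and by 5.49% of all genes, a share at which so short a list holds few. Bbc3 encodes Puma, the main p53-driven killer of the group. It read 7.99, 7.06, 7.49, 7.39 and 6.97 in wild-type replicates 1 to 5 and 7.40, 8.27, 7.65, 6.62 and 7.80 in mutant replicates 1 to 5. Mutant pools held both the highest and the lowest value of the 10. The difference was 0.17 with an interval of -0.51 to 0.85 (limma, unadjusted p = 0.596, adjusted p = 0.999). It was -0.01 without mutant replicate 2. The signs of Bcl2l11, Hrk and Bik also each turned in at least 1 fit that left out 1 array.

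Bad, a sensor that growth factor kinases switch off, had the lowest p of the BH3-only genes. It read 9.56, 10.14, 10.04, 9.89 and 9.61 in wild-type replicates 1 to 5 and 10.59, 9.94, 9.92, 9.82 and 10.19 in mutant replicates 1 to 5. Mutant replicates 1 and 5 were above all wild-type pools and the other 3 were among them. The difference was 0.24 with an interval of -0.16 to 0.65 (limma, unadjusted p = 0.207, adjusted p = 0.982). Its second probe set gave 0.28, and the difference was 0.12 without mutant replicate 1.

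The other BH3-only genes differed little beside their spread. Bcl2l11 encodes Bim, the sensor that kills cells after growth factor withdrawal, and read 10.06 ± 0.50 in wild type and 10.21 ± 0.38 in the mutants. Bmf, which responds to loss of attachment, differed by 0.20 with an interval of -0.25 to 0.65, and its 3 probe sets were all higher. Bid, which links death receptors to mitochondria, differed by 0.14, Hrk by 0.11 and Bik by -0.01. Dimmer probe sets read -0.38 and 0.05 for Bid and -0.02 for Hrk, and 1 of the 5 probe sets of Bcl2l11 read -0.16. Pmaip1 encodes Noxa, a p53 target, and ranged from 1.26 to 5.28 in wild type and from 1.62 to 5.14 in the mutants, too wide and dim a spread to place a difference of 0.49.

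The pore-forming effectors were represented by Bak1 and Bok. Bak1 read 7.52, 7.93, 7.34, 7.07 and 7.54 in wild-type replicates 1 to 5 and 7.21, 6.88, 7.51, 7.67 and 8.51 in mutant replicates 1 to 5. The mutant pools spanned the whole wild-type range, from the lowest value of the 10 in replicate 2 to the highest in replicate 5. The difference was 0.08 with an interval of -0.57 to 0.72 (limma, unadjusted p = 0.798, adjusted p = 0.999). It was -0.16 without mutant replicate 5, -0.03 without wild-type replicate 4 and -0.27 on the other probe set, so no direction is stated. Bok, an effector that can act without the BH3-only sensors, read 8.34 in both groups.

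For 5 of the 40 genes the low and the high 18S arrays did not overlap, where 4.85% of all genes showed this. Adjusted for genotype, Bak1 (-0.66), Bmf (-0.52), Sesn1 (-0.43) and Zmat3 (-0.28) were lower in the low set and Phlda3 (0.46) was higher. Their adjusted limma p-values for the 18S set were 0.197 to 0.304. At an adjusted p under 0.05, 0 of the 40 genes and 1 of all genes were called for the 18S set. Mutant and wild-type arrays were equal in number within each 18S set, so a shift between the sets would widen the spread within a genotype. The sign of the genotype difference was the same within both sets for 21 of the 40 genes.

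No difference was detected for the apoptosome genes Apaf1, Cycs and Diablo, whose intervals all held 0. Apaf1, the scaffold that cytochrome c assembles, read 8.89 ± 0.22 in wild type and 8.99 ± 0.11 in the mutants (SD, n = 5 each). The other probe set of Apaf1 gave -0.07. Cycs, which encodes cytochrome c, differed by -0.16 with an interval of -0.43 to 0.11. Its 3 brightest probe sets read -0.16, -0.11 and -0.20, and its dimmest read 0.47. Diablo encodes Smac, which releases caspases from Xiap. It had one of the narrowest intervals of the list, from -0.26 to 0.20 around a difference of -0.03.

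Of the 4 caspases measured, 3 were higher and 1 lower, with a median difference of 0.17. Casp6, an executioner that cleaves nuclear lamins, had the lowest p. It read 10.11, 10.08, 10.22, 9.97 and 9.88 in wild-type replicates 1 to 5 and 10.41, 10.16, 10.33, 10.13 and 10.14 in mutant replicates 1 to 5. Mutant replicates 1 and 3 were above every wild-type pool and the others were inside the wild-type range. The difference was 0.18 with an interval of -0.07 to 0.42 (limma, unadjusted p = 0.135, adjusted p = 0.955). Both of its probe sets were higher, and the 95% interval of its fold ran from 0.955 to 1.34.

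Casp9, the initiator that the apoptosome activates, differed by 0.23 with an interval of -0.12 to 0.58, and its 3 probe sets were all higher. Casp8, the initiator at death receptors, differed by 0.16 with an interval of -0.18 to 0.50. Casp2, an initiator that responds to damage and to failed division, differed by -0.07.

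Both listed death receptors, Tnfrsf10b and Fas, were under the filter on dim signal. Tnfrsf10b encodes the receptor for the ligand Trail and is a p53 target. It read 4.28, 5.05, 5.98, 2.06 and 4.62 in wild-type replicates 1 to 5 and 5.65, 4.22, 4.32, 5.39 and 5.13 in mutant replicates 1 to 5. Wild type held both the highest and the lowest value. The difference was 0.54 with an interval of -0.89 to 1.98 (limma, unadjusted p = 0.418, adjusted p = 0.999). It was -0.04 without wild-type replicate 4. Fas, a death receptor and p53 target, ranged from 3.08 to 4.89 in wild type and from 2.68 to 5.64 in the mutants. Fadd, the adaptor that carries Casp8 to such receptors, read 8.11 ± 0.22 and 8.12 ± 0.36.

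**Figure D4:**
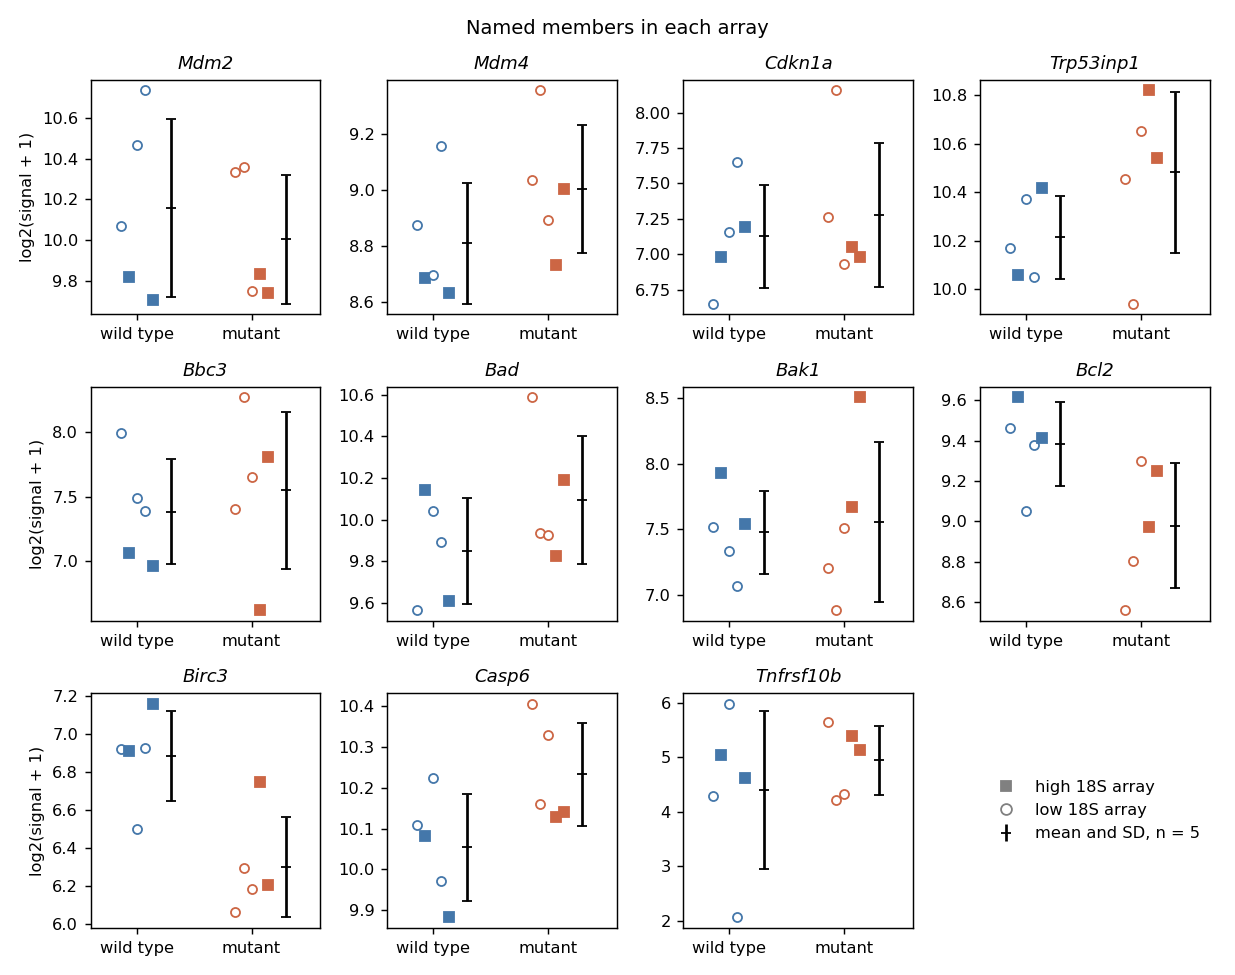
Signal of the 11 genes described array by array (y axes, log2(signal + 1)), wild type on the left and mutant on the right of each panel, with points for arrays, filled squares for the high 18S set, and bars for mean and SD (n = 5). Wild-type and mutant points overlap in every panel, including Birc3, where a single mutant point reaches the wild-type range.

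Death-promoting genes taken as one list were higher for 15 of 20, or 75.0%, and lower for 5, with a median difference of 0.13. Of all genes, 54.9% were higher. An unadjusted p under 0.05 was reached by 0 of 20 and by 5.49% of all genes, a share at which so short a list holds few. These lists were drawn up with earlier results of the same arrays known, and their medians are descriptions without a test.

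Pathway genes outside the list lay on both sides of 0, and the widest differences among them were of dim genes. Of 23 further p53 targets measured, 10 were higher and 13 lower, with a median of -0.02. The lowest p among them belonged to Sp5, a transcription factor best known as a direct target of canonical Wnt signalling, which read 3.20 to 5.21 in wild type and 2.16 to 3.27 in the mutants. Its difference was -1.76 with a standard error of 0.38 (limma, unadjusted p = 0.00101, adjusted p = 0.415). Sp5 was dim in both groups, and with a pseudocount of 16 in place of 1 the difference was -0.78. Of 12 relatives of p53 and kinases of the damage response, 4 were higher and 8 lower, and the lowest p was that of Trp63, at 0.30 with an interval of -0.05 to 0.66. For Trp63, whose product p63 is a p53 relative of stratified epithelia, 2 other probe sets read -0.46 and -0.79.

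A further list held genes of the mitochondrial pathway together with inflammatory caspases, which are not part of that pathway. Of its 19 measured genes, 13 were higher and 6 lower, with a median of 0.02. Its lowest p was that of an inflammatory caspase. Casp4, an inflammatory caspase that senses bacterial lipopolysaccharide, differed by 1.36 with a standard error of 0.56 (limma, unadjusted p = 0.0365, adjusted p = 0.88). It was dim, at 2.47 to 4.10 in wild type and 2.72 to 5.90 in the mutants. Of 12 further death receptor genes, 7 were higher and 5 lower, with a median of 0.11. The ligand Trail, encoded by Tnfsf10, had the lowest p there, at -0.27 with an interval of -0.58 to 0.03, while another of its probe sets read 0.16.

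Genes for the clearance of dead cells were higher for 9 of 11 and lower for 2, with a median difference of 0.10. Tyro3 encodes a receptor kinase through which cells engulf dying neighbours. It was the sole gene of the 5 further lists, with 23, 12, 19, 12 and 11 genes measured, whose groups did not overlap. Of all genes, 1.21% did not overlap. Tyro3 read 6.39 to 6.71 in wild type and 6.83 to 7.30 in the mutants. Its difference was 0.41 with a standard error of 0.13 (limma, unadjusted p = 0.00908, adjusted p = 0.691). Mfge8, a bridging protein that coats dying cells, went the other way at -0.32 (limma, unadjusted p = 0.0271, adjusted p = 0.868), and is named here because its value was seen. Sp5, Casp4, Tyro3 and Mfge8 were the genes of the 5 lists with an unadjusted limma p under 0.05, which 5.49% of all genes had. All 10 macrophage markers were higher in the same comparison, among them C1qa at 0.73, and their part in the clearance list was not tested.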

How the data were processed

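The authors deposited probe-set intensities on a linear scale for 10 arrays in 1 table. No source used here names the algorithm behind them. The trimmed mean intensity was 250.0 on every array, so scaling preceded deposit, and no further normalization was applied. Each gene was represented by its brightest probe set among those annotated to that gene alone, on the scale log2(signal + 1), which understates fold changes of dim genes. Groups were tested with limma 3.58.1 (lmFit and eBayes, two-sided) in R 4.3.3, with Benjamini-Hochberg adjustment over all 18193 genes, on code tested on simulated data. The number of arrays, 5 per group, limits the precision. Each array was taken as a distinct RNA pool, which the sample titles do not state. The p-values measure the spread between arrays, and between pools only if no pool was hybridised more than once.

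The members, role groups and other lists were chosen with earlier results of these data known. Genes given array by array are those with an unadjusted p under 0.05, the one with the smallest p in each role group, and Mdm2, Cdkn1a, Bcl2 and Bbc3. In each further list the gene with the smallest p is named. The alternatives were the mean of probe sets, single probe sets, no dim genes, quantile normalization, median centring, a pseudocount of 16, moderation with trend, array weights, blocks for 18S set and title wording (statmod 1.5.0), each 18S set alone, no arrays with bright hybridisation controls, and leaving out each array. The comparison of the 18S sets themselves was added after the data were seen. Promoter sequences are from RefSeq, GRCm38.p6.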

Additional observations from a re-analysis of the deposited data

Results flagged for a closer look

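Single arrays stood far from the other 4 of their group for 4 genes. Cdkn1a read 8.16 in mutant replicate 2, where the other mutants read 6.93 to 7.26. Bik read 5.18 in mutant replicate 5, against 6.38 to 6.73 in the others. Bcl2l1 read 8.94 in mutant replicate 3, against 9.24 to 9.36. Fas read 3.08 in wild-type replicate 5, against 4.46 to 4.89. A gap of this size is met by chance in about 1 of 20 groups of values, so 5.2 were expected among the 104 groups examined and 4 were found.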

How the results depend on the processing

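Under all 22 alternative settings 0 of the measured members were called by limma at an adjusted p under 0.05. The number of all genes called, 1 in the main comparison, was 0 with the mean of probe sets, with the 18S set as a block, in the high or the low 18S arrays alone and without the 2 arrays with bright hybridisation controls, 6 without the dimmest 40% of genes (fewer genes tested), 10 with trend and robust moderation, and 0 to 2 when 1 array was left out. Members with an unadjusted p under 0.05, 2 in the main comparison, numbered 0 in the high 18S arrays alone (4 arrays), where Birc3 and Bcl2 still read -0.56 and -0.40, and 1 to 2 when 1 array was left out. In the low 18S arrays alone the 2 were Birc3 and Perp, with Perp at 0.78 (limma, unadjusted p = 0.0284). Without the 2 bright arrays there were 3, with Trp53inp1 added at 0.44 (limma, unadjusted p = 0.0123). The members' median difference, 0.09, became 0.032 with the mean of probe sets, 0.134 in the low 18S arrays, 0.046 without the bright arrays and 0.045 to 0.113 when 1 array was left out. The sign reversed in 14 of 257 alternatives for the genes given array by array. Mdm2 was 0.027 in the high 18S arrays and Mdm4 was -0.27 on another probe set. Cdkn1a was -0.092 with the mean of probe sets, -0.07 in the high 18S arrays, -0.062 without the bright arrays, -0.33 on its other probe set and -0.07 to 0.28 when 1 array was left out. Bak1 was -0.10 with the mean of probe sets, -0.11 in the low 18S arrays, -0.27 on its other probe set and -0.16 to 0.24 when 1 array was left out, with -0.03 without wild-type replicate 4. Over the same omissions Bbc3 was -0.013 to 0.40 and Tnfrsf10b -0.042 to 0.94. Among other pathway genes, Tnfsf10 was 0.16 and Trp63 -0.46 and -0.79 on other probe sets. The cause was not tested. For the other members 8 of 635 values moved beyond 1 SD. Dim genes had wide intervals.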

Other observations

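A few genes of the further lists had unadjusted p-values of 0.05 to 0.10 or are well known, and are given because their values were seen. Bag3, a co-chaperone that holds off apoptosis under stress, read 7.21 in wild type and 7.55 in the mutants, and Chek1, the checkpoint kinase of stalled replication, read 9.43 and 9.12. Fasl, the ligand of Fas, was dim at 4.19 and 5.12, and its difference was -0.29 among the high 18S arrays and 1.74 among the low ones. In limma the unadjusted p-values of Bag3, Chek1 and Fasl were 0.0511, 0.0983 and 0.0769, and none passed after adjustment over all genes. Birc5, which encodes survivin, and Parp1, a caspase substrate, differed by 0.02 and 0.01.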
